A study of Arabidopsis thaliana with 27 samples.

Results

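The chloroplast genome of Arabidopsis thaliana is described here through 133 genes, every row of the count tables whose identifier begins with ATCG, of 33557 genes in all. They comprise 15 rows of photosystem II, 5 of photosystem I, 6 of the cytochrome b6f complex, 6 of ATP synthase, 1 of Rubisco, 12 of the NDH complex, 26 of ribosomal proteins and 4 of the plastid RNA polymerase. The others are 8 rows of ribosomal RNA, 37 of transfer RNA, 11 other protein genes and 2 rows that the reference annotation does not name. Of these rows 86 code for protein, and 36 form 18 pairs of identical copies in the inverted repeat.

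Chloroplast genes are read by a pair of RNA polymerase types. The plastid-encoded polymerase resembles that of bacteria, is built from the rpoA, rpoB, rpoC1 and rpoC2 products and depends on nuclear-encoded sigma factors, while a single-subunit polymerase encoded in the nucleus reads other genes, the rpoB operon among them. Many chloroplast genes lie in operons whose long transcripts are cut, spliced and trimmed, and a poly(A) tail marks chloroplast RNA for degradation rather than protecting it. A kit that selects poly(A) RNA would therefore keep a small and uneven sample of chloroplast RNA. The labels' protocols name mRNA kits, and the part of such a step in the counts below was not tested.

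Whole Col-0 seedlings grown at 17 °C in long days for 10 days were moved at ZT1, 1 h after dawn, and collected with unshifted seedlings at 15 min, 1 h and 4 h. The 17-to-27 experiment had 2 libraries at 17 °C and 2 at 27 °C at each time and 1 at 0 min (13 libraries). The 17-to-37 experiment (17 and 37 °C) and the 22-to-27 experiment (22 and 27 °C) had 1 library per temperature and time and 1 at 0 min (7 libraries each). The labels leave growth at 22 °C undescribed. All plants are wild type. Nothing in the labels ties replicate libraries to separately grown seedlings, so p-values measure the spread between these libraries, which may be technical.

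Total counts per library ran from 5.79 M to 30.7 M, and counts of chloroplast protein-coding genes from 2483 to 134810. Each of 7 green-tissue marker genes was detected in every library, with a summed level of 13778 to 30652 CPM (counts scaled to library size), against 43.7 to 199 for 7 root markers, of which 6 were detected in every library. The share of all counts that fell on chloroplast genes was 0.202% to 6.45% in the 17-to-27 experiment, 0.336% to 0.675% in the 17-to-37 experiment and 0.265% to 0.388% in the 22-to-27 experiment. The range of the first experiment followed the replicate number, apart from the 0 min library at 0.202%, which its labels number in conflicting ways and which entered no test. Number 1 had 1.25% at 17 °C and 1.54% at 27 °C at 15 min, 5.43% and 6.45% at 1 h, and 0.816% and 0.433% at 4 h. Number 2 had 0.284% and 0.231%, 0.252% and 0.214%, and 0.209% and 0.374% at the same times. From 15 min to 4 h the numbers did not overlap, although at 4 h the 27 °C libraries lay nearer to each other than the 17 °C ones. Libraries of the same number were therefore paired within a time in every test of temperature in that experiment.

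**Figure D1:**
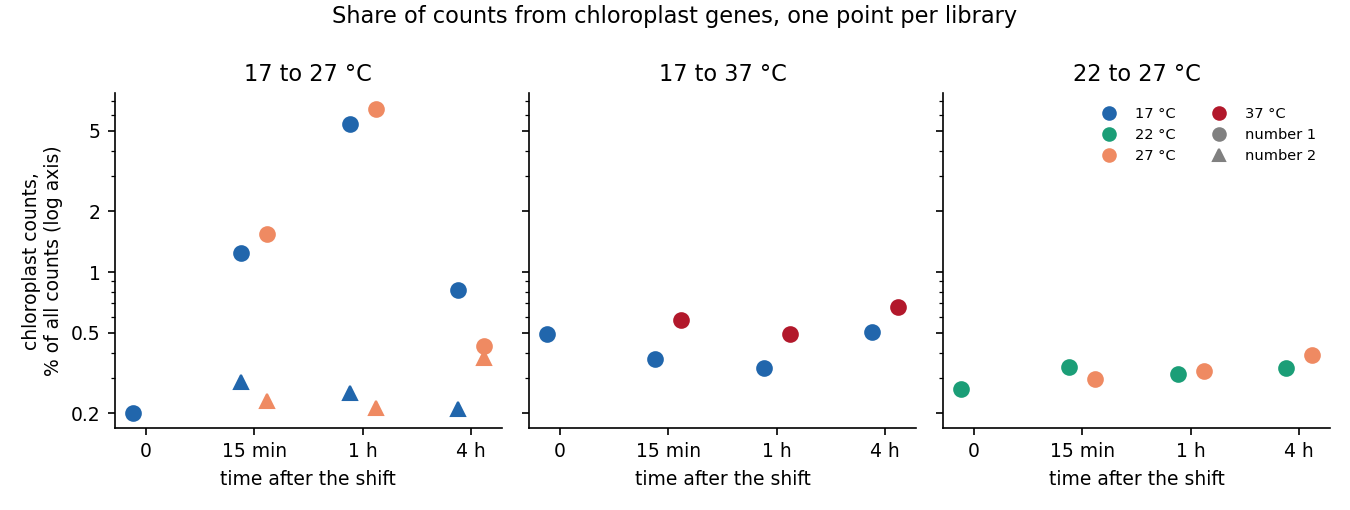
Chloroplast counts as a percentage of all counts (log axis) in each of the 27 libraries, by time after the shift, with colour for temperature and shape for replicate number (single libraries are drawn as number 1). In the 17-to-27 experiment the number 1 libraries from 15 min to 4 h lie between 0.433% and 6.45% and those of number 2 between 0.209% and 0.374%.

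The numbers also differed in which chloroplast genes were counted. Over 77 protein-coding rows with at least 500 counts in all, the share of chloroplast coding counts was set as number 2 over number 1 in each of the 6 pairs of equal time and temperature. The mean log2 ratio was 2.41 for rpoB, 2.19 for rpoC1 and 1.99 for rpoC2, the subunits of the plastid polymerase, each higher in number 2 in 6 of 6 pairs. It was 2.21 for rpl32 (higher in 5 of 6 pairs) and 1.57 for rps2 (6 of 6), both ribosomal protein genes. It was -0.86 for psbA, which encodes the D1 protein of photosystem II, and -0.73 for psbE, a cytochrome b559 subunit, both lower in number 2 in all 6 pairs. By class the median was 2.09 for the polymerase rows and 0.91 for 21 ribosomal protein rows, against -0.18 for 14 photosystem II rows and 0.05 for 12 NDH rows.

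The ratio moved with the adenine content of the gene, as the plot of number 2 over number 1 shows. Across the 77 genes Spearman's rho was 0.66 and Pearson's r 0.55 with the percentage of A on the sense strand, -0.54 and -0.43 with that of T, 0.35 and 0.35 with the longest run of A, and 0.05 and 0.08 with length. Genes of 1 operon share transcripts and all points share the same 12 libraries, so these are descriptions. The sequences below show genes high in number 2 (rpl32 and rpoB), a gene low in it (psbE), and psbK, which had a mean log2 ratio of 0.10 but is among the genes poorest in A and, like rpoB, one on which the 37 °C results turn. Capitals mark runs of 4 or more A, and all positions are on the chloroplast genome (Pt) of the files' build, TAIR10, with sequence from RefSeq's TAIR10.1.
rpl32 (Pt:113449-113607, plus strand, whole gene): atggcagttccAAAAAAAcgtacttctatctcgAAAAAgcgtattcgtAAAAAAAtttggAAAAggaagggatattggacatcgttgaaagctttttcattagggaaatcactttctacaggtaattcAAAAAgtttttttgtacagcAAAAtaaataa
rpoB (Pt:26030-26329, minus strand, first 300 bases of the coding sequence): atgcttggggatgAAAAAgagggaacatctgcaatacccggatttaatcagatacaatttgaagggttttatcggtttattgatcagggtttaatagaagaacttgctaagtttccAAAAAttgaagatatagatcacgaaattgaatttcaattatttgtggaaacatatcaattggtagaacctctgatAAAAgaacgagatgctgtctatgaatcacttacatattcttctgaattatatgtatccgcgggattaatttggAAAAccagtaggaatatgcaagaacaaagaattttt
psbE (Pt:64071-64322, minus strand, whole gene): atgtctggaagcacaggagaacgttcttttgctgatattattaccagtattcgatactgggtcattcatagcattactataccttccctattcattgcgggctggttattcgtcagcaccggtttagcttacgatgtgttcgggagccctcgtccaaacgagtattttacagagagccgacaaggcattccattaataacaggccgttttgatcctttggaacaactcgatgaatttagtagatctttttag
psbK (Pt:7017-7202, plus strand, whole gene): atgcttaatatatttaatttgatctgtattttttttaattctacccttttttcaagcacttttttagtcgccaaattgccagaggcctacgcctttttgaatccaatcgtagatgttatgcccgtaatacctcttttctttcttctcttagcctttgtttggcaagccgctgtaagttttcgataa

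The rpl32 gene held 6 such runs in 159 bases and was 39.6% A, while psbE held 0 and was 25% A and psbK held 0 and was 21.5% A. The stretch of rpoB held 4 runs and was 36.3% A, while the whole rpoB gene was 31.8% A with a longest run of 10. The whole genes rpoC1 and rpoC2, also high in number 2, were 32.4% and 32.7% A. Over the 77 genes the median was 31.3% A (20.7% to 41.1%).

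**Figure D2:**
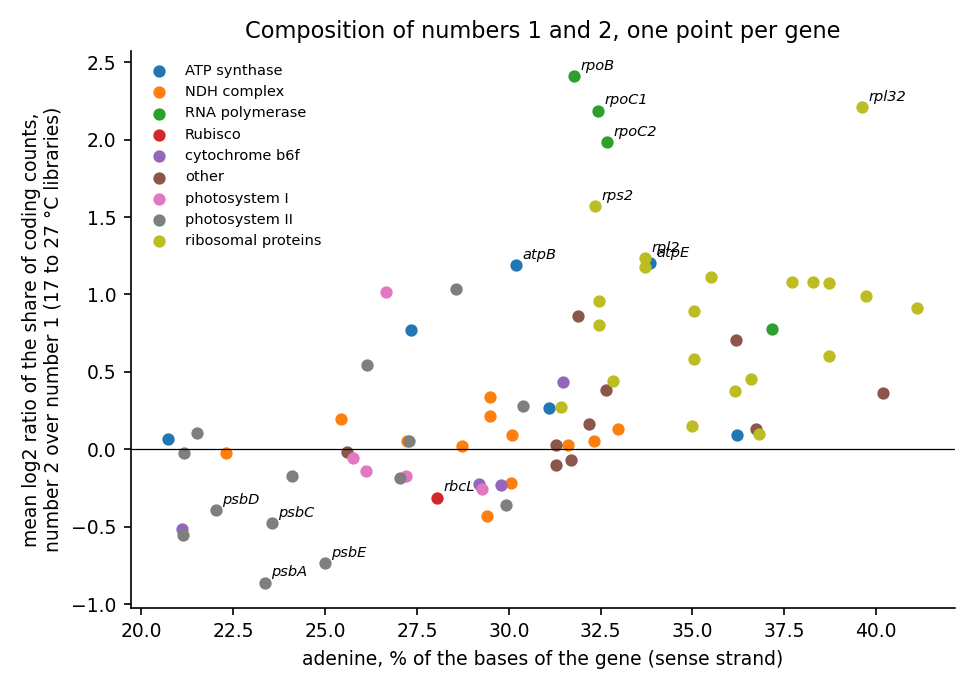
Mean log2 ratio of each gene's share of chloroplast coding counts, number 2 over number 1 of the 17-to-27 experiment (6 pairs), against the percentage of A in the gene, with colour for gene class. The polymerase genes rpoB, rpoC1 and rpoC2 and the A-rich rpl32 lie between 1.99 and 2.41, and psbA lies at -0.86.

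Most chloroplast counts were ribosomal RNA. It took 80.8% of them over all libraries (74.5% to 88.7% per library), photosystem II 6.63%, Rubisco 3.24% and photosystem I 2.88%. Rows of the inverted repeat were counted almost equally at both copies, with 50.1% of the 16S rRNA counts and 50% of the 23S rRNA counts on the first copy, so a pair of such rows is 1 measurement and not a repeat. Compared per length, by the authors' TPM, the highest protein-coding gene was psbA (median 180 TPM over the 27 libraries, 65.1 to 3119), followed by rbcL, the large subunit of Rubisco (66.5, range 41.8 to 1614). Both photosystem I core genes were lower, with a median of 27.4 TPM for psaB and 23.1 for psaA, and psbD, which encodes the D2 protein, had 22.5. The polymerase gene rpoB had 9.25 (0.377 to 30.5), accD, a subunit of acetyl-CoA carboxylase, 1.29 and the 2 copies of ycf2 0.444 and 0.530. These ranges overlap for all neighbours in that order. Short genes cannot be placed in it: 42 to 56 of the 133 genes per library were listed at 0 TPM, 24 to 44 of them with counts, so a TPM of 0 is not absence here.

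Each gene was compared between temperatures on 2 scales. The library scale sets a gene against all RNA of the library. The chloroplast scale sets it against the other chloroplast protein-coding genes, so that a change in how much chloroplast RNA a library holds drops out. In these bulk samples fewer chloroplasts, less RNA per chloroplast and less chloroplast RNA kept by the kit cannot be told apart. A gene counts as higher or lower below where edgeR's quasi-likelihood test gave an adjusted p under 0.05 over all genes tested, not over the chloroplast genes alone.

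At 27 °C, over the 3 times, none of the 121 chloroplast genes with enough counts to be tested changed on either scale, where edgeR called 2.61% of all genes tested on the library scale and 2.62% on the chloroplast scale. Of all genes 1.33% were higher and 1.28% lower on the library scale, and 1.34% and 1.28% on the chloroplast scale. On the library scale 0 members had an unadjusted p under 0.05, on the chloroplast scale 2 had, and DESeq2 called 0 on both. The median log2 change was -0.03 on the library scale and 0.02 on the chloroplast scale (all genes -0.01 and -0.01). The standard errors show what could be seen. For psbA the log2 change on the chloroplast scale was 0.15 ± 0.18 (SE, 6 pairs), for rbcL 0.09 ± 0.15, for psbD 0.08 ± 0.17, for atpB, a catalytic ATP synthase subunit, 0.02 ± 0.11 and for rpoB -0.30 ± 0.22. The pairs differed in direction: psbD as a share of coding counts went from 2.76% to 2.65% and from 1.85% to 1.85% at 15 min, from 3.54% to 2.69% and from 2.1% to 1.69% at 1 h, and from 1.83% to 2.07% and from 1.42% to 3.0% at 4 h (17 to 27 °C, numbers 1 and 2). The rpoB share went from 1.21% to 1.38% and from 4.86% to 5.21%, from 0.766% to 0.383% and from 5.51% to 5.69%, and from 1.08% to 1.00% and from 6.09% to 2.49%. For rpoB the numbers lay further apart than the temperatures at 15 min and 1 h. At 4 h, however, the rpoB step of number 2 with temperature (6.09% to 2.49%) was wider in percentage points than the distance between the numbers at 27 °C (1.00% and 2.49%). For psbD too the pair of number 2 at 4 h showed the widest step with temperature.

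At single times, with 2 pairs each, few chloroplast genes changed at 27 °C. At 15 min 0 of 121 did on either scale (0.871% of all genes were called on each), with 8 at an unadjusted p under 0.05 on the library scale and 3 on the chloroplast scale, and DESeq2 called 0. At 1 h psbE and the valine transfer RNA gene trnV (ATCG00450) were higher on both scales, 2 of 121 where 7.82% of all genes were called and 3.32% were higher. The trnV counts were 100 and 10 at 17 °C and 331 and 18 at 27 °C, a log2 change of 1.45 ± 0.30 on the chloroplast scale (edgeR adjusted p = 0.0217). The psbE counts were 561 and 17 against 1089 and 23 (0.78 ± 0.18, adjusted p = 0.0309). Both pairs rose for each gene, and without the number 1 libraries of 1 h, or without pairing, 0 genes passed. At 4 h the isoleucine transfer RNA gene trnI (ATCG01200) was lower on both scales, 1 of 121 where 2.58% of all genes were called (1.05% higher on both scales, 1.52% lower on the library scale and 1.53% on the chloroplast scale), from 16 and 28 counts at 17 °C to 14 and 2 at 27 °C in libraries of unequal depth (log2 change -2.43 ± 0.52 on the chloroplast scale, adjusted p = 0.0461). Its identical copy ATCG00930 had 14 and 20 counts against 16 and 6 and did not pass. Without pairing, or without either number of 4 h, 0 genes passed.

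At 37 °C more chloroplast genes passed. On the library scale 23 of 92 chloroplast genes tested were higher over the 3 times and 0 lower, where 9.91% of all genes were higher and 11.3% lower. The median log2 change of the 92 was 0.69 (all genes 0.00). The 23 included 8 of 11 tested rows of photosystem II, 5 of 8 of ribosomal RNA, 3 of 21 of ribosomal proteins, 2 of 4 of cytochrome b6f, 2 of 12 of transfer RNA, 1 of 4 of photosystem I, rbcL and 1 of the 2 ycf1 rows. Identical copies of the inverted repeat are counted here as separate rows. The chloroplast share of all counts was 0.372%, 0.336% and 0.506% at 17 °C and 0.581%, 0.492% and 0.675% at 37 °C (15 min, 1 h and 4 h), higher at 37 °C at each time. The mitochondrial share was higher too, at 0.0292%, 0.0299% and 0.0412% against 0.152%, 0.265% and 0.448%; its part in the result was not tested. The summed level of the 7 root markers was 122, 106 and 142 CPM at 17 °C and 60.5, 52.6 and 43.7 CPM at 37 °C, lower in every pair without overlap, and its part was not tested either. The 41 members with too few counts were not tested, and 1 library per temperature and time left 2 residual degrees of freedom, so 1 pair decides much: without the 1 h libraries 0 genes passed on either scale, and without the 15 min libraries 15 passed on the library scale.

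Ribosomal RNA shows the size of that common shift. The 23S rRNA row ATCG00950 had 20210, 15987 and 20457 counts at 17 °C and 32408, 21239 and 35964 at 37 °C, a log2 change of 0.98 ± 0.10 on the library scale (adjusted p = 0.0056) and 0.41 ± 0.15 on the chloroplast scale (adjusted p = 0.109). The 16S row ATCG00920 changed by 0.75 ± 0.09 (adjusted p = 0.0103) and 0.18 ± 0.20. The median over the 92 genes was 0.12 on the chloroplast scale, and 3 were higher and 5 lower, where 9.76% of all genes were higher and 11.3% lower. Without the 4 h libraries 5 genes passed in place of 8.

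**Figure D3:**
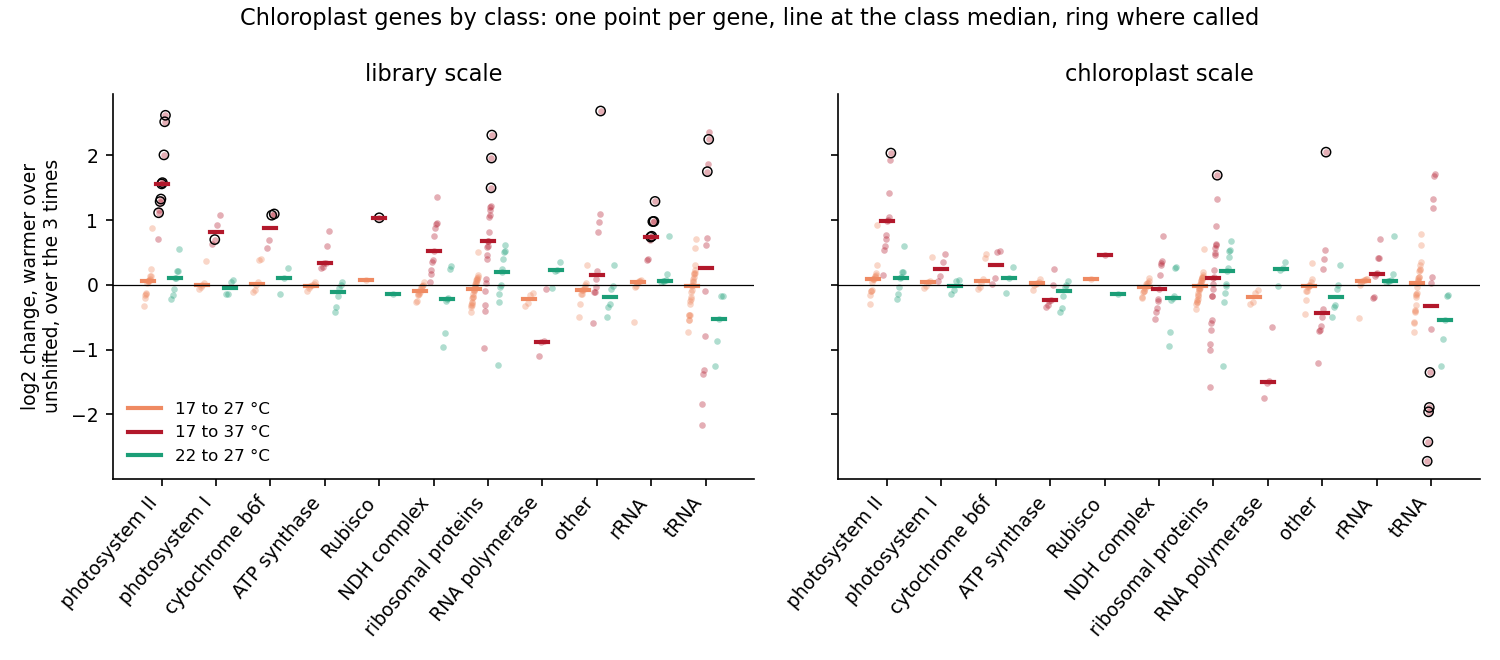
Log2 change of each tested chloroplast gene over the 3 times by class, for the moves from 17 to 27 °C, 17 to 37 °C and 22 to 27 °C, on the library scale (left) and the chloroplast scale (right), with a line at the median and a ring where the gene passed the test. At 37 °C photosystem II has a median of 1.56 (left) and 0.98 (right) and the RNA polymerase rows -0.88 and -1.50.

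Within the chloroplast RNA, photosystem II and the polymerase genes moved apart at 37 °C, and the distance was larger at each later time. All counts of photosystem II rows made up 34.9%, 33.5% and 36.1% of chloroplast coding counts at 17 °C and 35.9%, 39.5% and 63.9% at 37 °C. The 4 polymerase rows made up 8.64%, 7.98% and 6.56% at 17 °C and 6.31%, 2.71% and 0.372% at 37 °C. ATP synthase rows went from 14.0%, 13.7% and 11.4% to 13.2%, 11.9% and 4.46%. For ATP synthase the median log2 change over the times was 0.34 on the library scale and -0.24 on the chloroplast scale, so its direction depends on the scale. On both scales photosystem II was above 0 (11 of 11 tested rows) and the polymerase below 0 (4 of 4 rows). Single photosystem II rows differed as a plain share of coding counts. There psbB, psbC, psbD, psbH, psbI and psbK were higher at 37 °C in 3 of 3 pairs, and psbE, psbF and psbZ in 2 of 3. Against that, psbA, psbJ, psbM, psbN and psbT were higher in 1 of 3.

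To follow the times singly, each 37 °C library was set against its 17 °C partner with the spread estimated jointly with the pairs of the 17-to-27 experiment. This test was added after the data were seen, and it assumes that lone libraries vary like those pairs. Calls at single times of the 37 °C move given below all come from it. It called, on the chloroplast scale, 2 of 127 genes at 15 min (10% of all genes), 13 at 1 h (13.9%) and 30 at 4 h (29.4%). At 4 h 11 were higher and 19 lower, where 13.2% and 16.1% of all genes were. Of the 13 genes of 1 h 12 were also called at 4 h, 92.3% of the first list and 40% of the second. On the library scale 11 were called at 15 min (10.1% of all genes, 4.39% higher), 24 at 1 h (14%, 5.67% higher) and 25 at 4 h (29.3%), the last with 15 higher and 10 lower. The scale matters at 4 h, where the 37 °C library had a normalisation factor of 0.557: the plain log2 ratio of shares was 1.94 for psbD, 1.02 for psbB, 0.51 for psbA, -1.32 for atpB and -4.28 for rpoB, below the fitted values given next in each case.

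**Figure D4:**
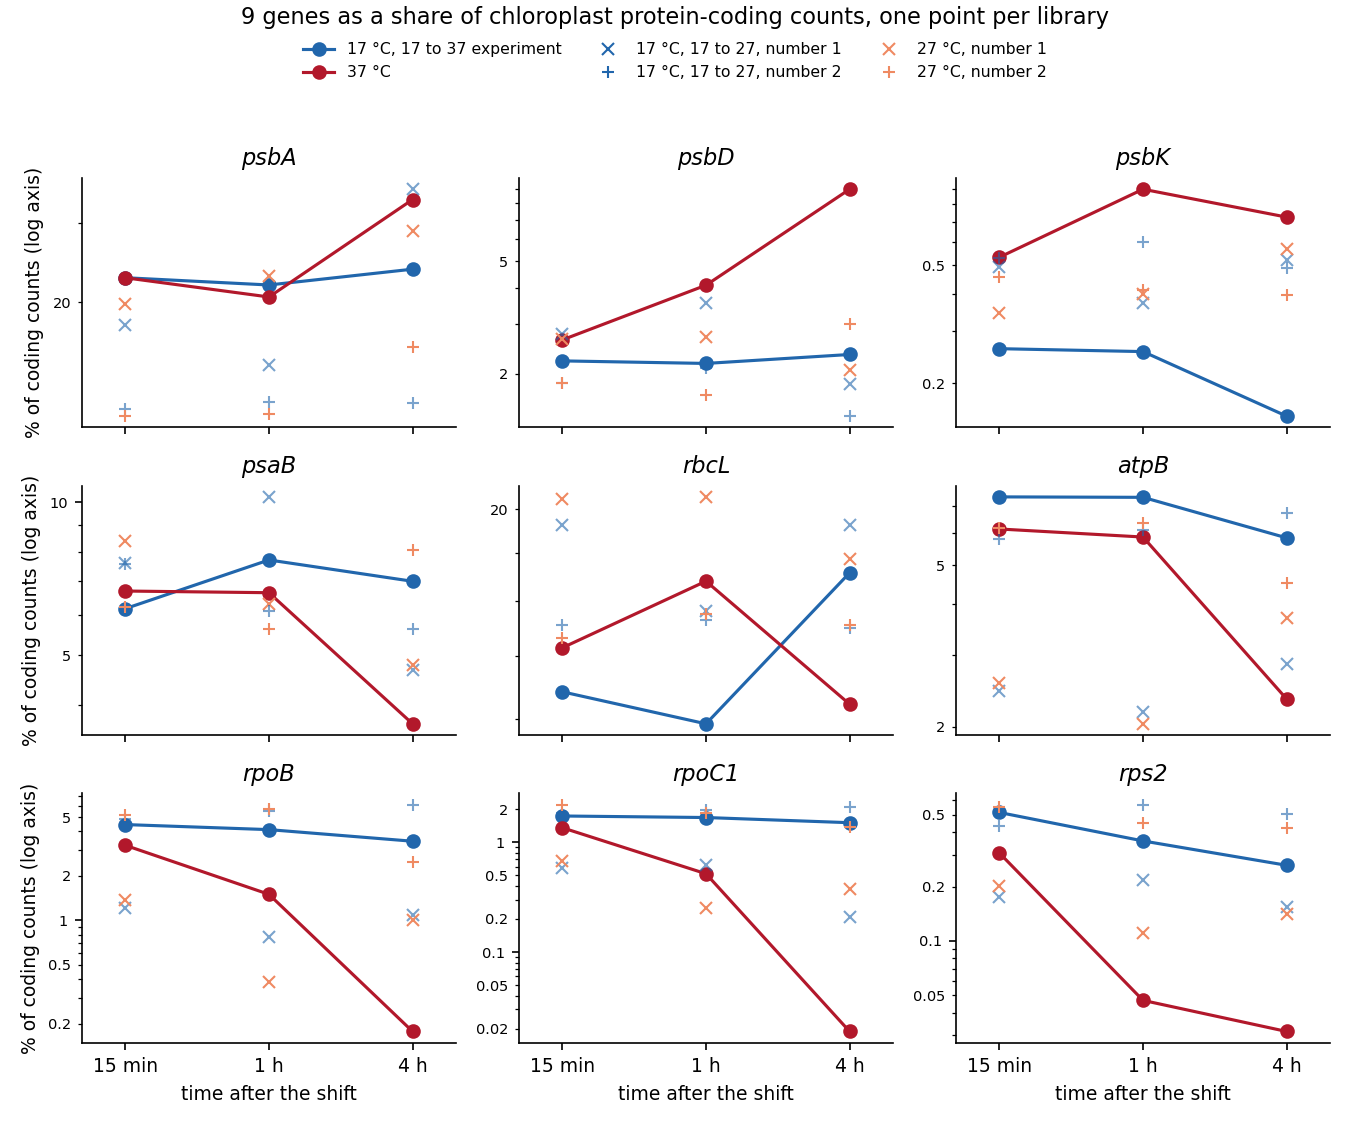
Share of chloroplast coding counts (percent, log axis) of 9 genes by time, with 1 point per library: lines join the 17 and 37 °C libraries of the 17-to-37 experiment, and crosses mark the 17-to-27 libraries. At 37 °C psbD climbs to 8.97% at 4 h and rpoC1 falls to 0.0189%, outside the range of the other libraries drawn.

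Within photosystem II, psbD and psbC were higher at 4 h, while over the 3 times neither passed on the chloroplast scale. They overlap on the genome and encode D2 and the CP43 antenna protein. The psbD counts were 263, 170 and 196 at 17 °C and 446, 438 and 1422 at 37 °C, so that its share of coding counts went from 2.22% to 2.63% at 15 min, from 2.17% to 4.11% at 1 h and from 2.34% to 8.97% at 4 h. The difference grew with time, and the log2 change at 4 h was 2.46 ± 0.34 on the chloroplast scale (adjusted p = 0.000954). The psbC counts were 473, 335 and 395 against 727, 684 and 1633 (1.65 ± 0.27 at 4 h, adjusted p = 0.00182). Next to them on the genome, psbZ (2.11 ± 0.50, adjusted p = 0.0116) and the serine transfer RNA gene ATCG00290 (2.12 ± 0.54, adjusted p = 0.0164) were higher too. The latter lies on the opposite strand to psbC and psbZ, and without knowledge of strand use its reads cannot be told from theirs.

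The gene psbK, which encodes a small photosystem II subunit, was the member of that class higher over the 3 times on the chloroplast scale. It had 31, 20 and 13 counts at 17 °C and 90, 96 and 115 at 37 °C, and its log2 change was 2.03 ± 0.43 (adjusted p = 0.0334). All 3 libraries at 37 °C lay above all 3 at 17 °C in counts and in share (0.532%, 0.900% and 0.725% against 0.262%, 0.256% and 0.155%). In the 17-to-27 experiment, however, psbK held 0.373% to 0.599% of coding counts at 17 °C, above the 17 °C libraries beside the 37 °C ones. Its neighbours psbI, trnS (ATCG00090), trnG (ATCG00100) and trnR (ATCG00110) follow it on the same strand. The psbI counts were 22, 9 and 6 against 35, 65 and 61, and those of trnS 28, 15 and 17 against 55, 85 and 85. At 1 h trnS changed by 2.20 ± 0.42 (adjusted p = 0.0078), trnG by 2.44 ± 0.61 (adjusted p = 0.0257), and trnR was higher (adjusted p = 0.0214). The trnG counts at 1 h were 4 against 27. For trnR they were 1 against 24, a ratio of shares of 17.6 with a 95% exact counting interval of 2.87 to 724.

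Other genes of the photosystems and of cytochrome b6f differed among themselves at 4 h. Over the 3 times none of them passed on the chloroplast scale. The psbB gene, for the CP47 antenna protein, was higher on the chloroplast scale (1.54 ± 0.19, adjusted p = 0.00042), with 461, 255 and 302 counts against 688, 557 and 1160, as were psbE (1.41 ± 0.31, adjusted p = 0.00836) and petB, cytochrome b6 (1.18 ± 0.28, adjusted p = 0.0115). The psbA counts were 2686, 1708 and 1985 against 3838, 2191 and 5358, a share of 23.7% at 17 °C and 33.8% at 37 °C at 4 h, and did not pass (1.03 ± 0.43, adjusted p = 0.0986). The photosystem I genes psaA and psaB had 4.52% and 3.67% of coding counts at 37 °C at 4 h against 6.86% and 6.99% at 17 °C and did not pass. The rbcL share was above its 17 °C partner at 15 min and 1 h (14.3% and 16.8% against 12.8% and 11.9%) and below it at 4 h (12.5% against 17.1%). Of the ATP synthase genes atpA, atpB and atpF were lower at 4 h, atpB with a log2 change of -0.80 ± 0.24 (adjusted p = 0.0303), and 0 of 6 passed on the library scale. None of the 12 NDH rows, subunits of a complex of cyclic electron flow, passed at any of the 3 times on the chloroplast scale.

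The polymerase genes rpoB, rpoC1 and rpoC2, which lie in 1 operon, were lower at 4 h on both scales in the test added after the data were seen. In the planned test over the 3 times none of them passed on either scale. The rpoB counts were 528, 322 and 288 at 17 °C and 546, 160 and 28 at 37 °C, the rpoC1 counts 205, 131 and 126 against 229, 55 and 3, and the rpoC2 counts 248, 150 and 111 against 249, 58 and 16. As a share of coding counts each was lower than its 17 °C partner at every time, and by more at each later one. The log2 change at 4 h on the chloroplast scale was -3.76 ± 0.43 for rpoB (adjusted p = 0.00041), -5.77 ± 0.70 for rpoC1 (adjusted p = 0.000463) and -3.19 ± 0.63 for rpoC2 (adjusted p = 0.0078). With 3 counts, the rpoC1 share at 37 °C was 0.0126 of that at 17 °C (95% exact counting interval 0.00256 to 0.0376). On the library scale the changes were -3.32, -5.30 and -2.75. The fourth gene, rpoA, lies in another operon and had 42, 21 and 25 counts against 44, 16 and 12, which did not pass.

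Genes beside the polymerase operon and in the large ribosomal protein operon were lower at 4 h as well. Over the 3 times none of them was called lower on either scale. The rps2 gene follows rpoC2 on the same strand and had 61, 28 and 22 counts against 52, 5 and 5 (-2.53 ± 0.57 at 4 h on the chloroplast scale, adjusted p = 0.00934). Of the operon that ends in rpoA, rpl14, rpl16, rps3 and rpl22 were among the genes lower at 4 h, with log2 changes from -1.69 (rpl16) to -2.97 (rpl22), while rpl36, rps19 and both copies of rpl2 were among those that did not pass. The gene matK, a splicing factor for group II introns, was lower (-2.39 ± 0.57, adjusted p = 0.0123). It lies inside the intron of trnK, which did not pass. Of these genes rps2 and rpl22 were lower at 4 h on the library scale too (adjusted p = 0.0305 and 0.0369), while rpl14, rpl16, rps3 and matK did not pass (adjusted p = 0.0508, 0.053, 0.0864 and 0.0608).

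**Figure D5:**
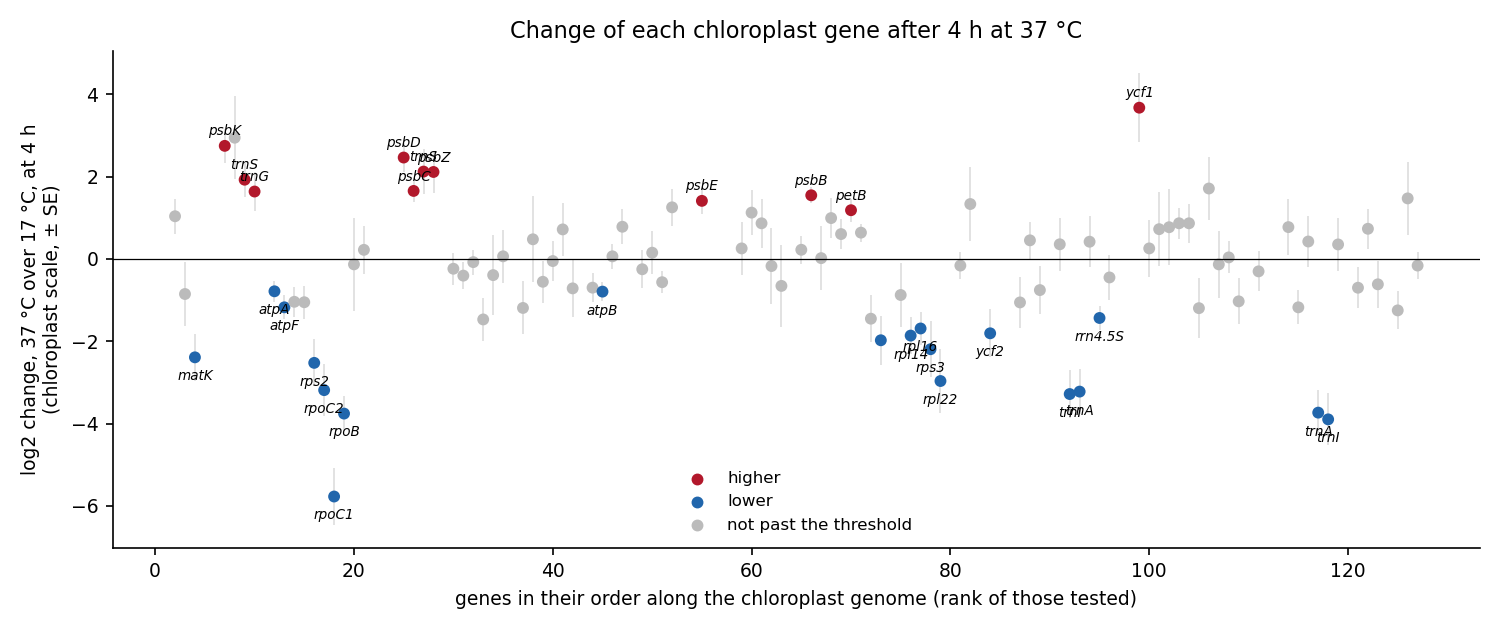
Log2 change (± SE) at 4 h, 37 over 17 °C, on the chloroplast scale for genes in their order along the chloroplast genome, 97 of the 127 tested, those with at least 10 counts in the 2 libraries together. Red points were higher (psbD, psbK and their neighbours among them) and blue points lower (rpoB, rpoC1, rpoC2 and rps2 side by side).

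The trnI and trnA rows of the ribosomal RNA operons and trnL were lower at 37 °C on the chloroplast scale, while the 16S and 23S RNA beside them did not pass. All 3 hold introns. So do trnG (786 bases), which was higher at 1 h and 4 h, and trnK, which did not pass at 4 h (log2 change -0.85). The rows of 801 (trnI) and 874 bases (trnA) lie between the 16S and 23S genes in each inverted repeat. The trnA row ATCG00940 had 50, 47 and 57 counts at 17 °C and 31, 12 and 8 at 37 °C, and the trnI row ATCG01200 had 60, 41 and 57 against 24, 9 and 5. In both rows every 37 °C library lay below every 17 °C library. Over the 3 times the log2 change on the chloroplast scale was -1.96 ± 0.43 for trnA (ATCG00940), -2.73 ± 0.65 for its copy ATCG01190, -2.43 ± 0.43 for trnI (ATCG01200) and -1.89 ± 0.44 for its copy ATCG00930, with adjusted p-values of 0.0356, 0.0429, 0.0233 and 0.0398. The trnL row ATCG00400 of 597 bases was lower as well (log2 change -1.35 ± 0.33, adjusted p = 0.0456). Over the 3 times none of these 5 rows passed on the library scale, where their log2 changes ran from -0.79 to -2.17. At 4 h alone the trnI and trnA rows were lower on the library scale too. Their log2 changes there ran from -2.78 (ATCG00940) to -3.45 (ATCG01200), while trnL was at -0.76 and did not pass. On the chloroplast scale at 4 h trnL was at -1.19 and did not pass either. At 4 h the 16S (ATCG00920) and 23S (ATCG00950) rows were at 0.35 and 0.42 on the chloroplast scale and did not pass. As a plain share of coding counts their log2 ratios were -0.17 and -0.11, so their direction depends on the scaling. The 4.5S rRNA row ATCG00960 was lower at 4 h on the chloroplast scale (-1.44 ± 0.28), while its identical copy ATCG01170 was at -1.18 ± 0.42 and did not pass.

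The remaining genes higher over the 3 times on the chloroplast scale had few counts. The shorter ycf1 row (ATCG01000), a truncated copy at the edge of the inverted repeat, had 17, 11 and 2 counts against 64, 39 and 34 (2.05 ± 0.52, adjusted p = 0.0482). The full-length ycf1 (ATCG01130), a component of the protein import machinery, had 35, 20 and 15 against 44, 10 and 16 and did not pass. The truncated row overlaps the end of ndhF on the opposite strand, and reads there cannot be told apart. One copy of rpl23 (ATCG01300) had 10, 3 and 3 counts against 33, 17 and 11 (1.69 ± 0.42, adjusted p = 0.0466), and its identical copy ATCG00840 passed on the library scale (1.96 ± 0.42, adjusted p = 0.0337) and not on the chloroplast scale.

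By promoter type, lists of genes known mostly for the nuclear-encoded or for the plastid-encoded polymerase were set side by side. Of 8 rows read mainly by the plastid-encoded polymerase (psbA, rbcL, psbB, psbC, psbD, psbE, psaA and psaB) 7 were higher at 37 °C over the times on the library scale and 0 lower, with a median log2 change of 1.20. On that scale 9.91% of all genes were higher and 11.3% lower. Of the 92 chloroplast genes 23 were higher there and 0 lower, with a median of 0.69. On the chloroplast scale 0 of 8 passed, with a median of 0.62 (0.12 for the 92 chloroplast genes), where 9.76% of all genes were higher and 11.3% lower. The direction of single members turned with the scaling: as a plain share of coding counts psaA was higher in 0 of 3 pairs, and psaB and psbA in 1 of 3 each. Of 8 rows of genes read mainly by the nuclear-encoded polymerase (accD, rpoB, rpoC1, rpoC2 and both rows of ycf1 and ycf2) 1 was higher on each scale, the truncated ycf1, and 0 were lower. Their median was -0.11 on the library scale and -0.70 on the chloroplast scale. These members did not move as 1 group: accD had 20, 14 and 19 counts against 27, 22 and 43. At 27 °C the medians on the chloroplast scale were 0.08 and -0.10.

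The changes at 4 h were set beside the ratio of number 2 over number 1 in the other experiment. Of 14 lower protein-coding rows among the 77 compared above, 12 had a higher share in number 2, but so did 54 of all 77. Of 8 higher rows 6 had a lower share in number 2, as did all of the 77 outside those 54. Across the 77 genes the log2 change at 37 °C and 4 h on the chloroplast scale had a Spearman's rho of -0.48 and a Pearson's r of -0.55 with the ratio of number 2 over number 1, and -0.52 and -0.45 with the percentage of A. No library is shared between the ratios. The part in the 37 °C result of whatever sets numbers 1 and 2 apart was not tested.

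The difference between the moves was tested directly, each against its own controls. For the chloroplast scale, 4 genes responded more strongly upward to 37 than to 27 °C (7.88% of all genes did) and 6 more strongly downward (11.1%), of 122 tested. The first were psbK (2.04 ± 0.34, edgeR adjusted p = 0.00216), the truncated ycf1 (1.94 ± 0.53), rpl23 (ATCG01300, 1.80 ± 0.45) and trnS (ATCG00090, 1.31 ± 0.38). The others were trnA (ATCG01190, -2.29 ± 0.65), trnI (ATCG00930, -1.78 ± 0.55), trnL (ATCG00400, -1.60 ± 0.45), rps2 (-1.48 ± 0.47), matK (-1.28 ± 0.41) and rpl14 (-1.12 ± 0.33). Without pairing in the 17-to-27 experiment 6 passed in place of 10. On the library scale 26 of 122 were higher at 37 °C (7.99% of all genes) and 0 lower (11.1%), with a median of 0.71, and 0 passed without pairing. The polymerase genes were not among them: rpoB differed by -1.30 ± 0.60 on the chloroplast scale (adjusted p = 0.153) over the 3 times.

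In the 22-to-27 experiment 0 of 61 chloroplast genes with enough counts changed on either scale, where 0.31% of all genes were called on each (0.257% higher and 0.0525% lower). At an unadjusted p under 0.05 there were 4 on each scale, and DESeq2 called 0. The psbA counts were 1125, 1267 and 610 at 22 °C and 665, 843 and 779 at 27 °C (0.11 ± 0.13 on the chloroplast scale), the rpoB counts 156, 169 and 75 against 131, 139 and 88 (0.36 ± 0.18). As a share of coding counts psbA was above its partner in all 3 pairs, and rpoB in the pairs of 15 min and 1 h.

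Time alone was compared in the 12 unshifted libraries, 4 h against 15 min after the hour of the shift. On the library scale 0 of 112 chloroplast genes passed, where 23.4% of all genes were called, although the median log2 change was -0.92 (all genes -0.01); 0 had an unadjusted p under 0.05 and DESeq2 called 0. This fit held terms for experiment and time but none for the replicate number. The spread in chloroplast share between numbers 1 and 2 therefore stays in the residual and gives psbA an SE of 1.09 here. Both copies of 23S rRNA were higher at 4 h on the chloroplast scale, by 0.64 ± 0.20 and 0.63 ± 0.20 (edgeR adjusted p = 0.0383 and 0.0414). They are 2 of 112 rows, where 10.9% of all genes were higher, but as identical copies they are 1 measurement. Neither passed without either single-library experiment or without number 1 of the 17-to-27 experiment.

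Among 27 nuclear genes for chloroplast transcription and RNA handling, 0 to 5 passed in each comparison over the times: 2 at 27 °C (2.61% of all genes), 3 at 37 °C (21.2%), 4 in the difference between the moves (19.1%) and 5 over unshifted time (23.4%). The sigma factor SIG5 passed in 3 of them. It directs the plastid-encoded polymerase to the light-responsive promoter of psbD. Its level at 37 °C stayed near the early one, with 304, 267 and 274 CPM at 15 min, 1 h and 4 h against 240, 200 and 82.6 at 17 °C. The move to 37 °C over the times did not pass (log2 change 1.17 ± 0.33, edgeR adjusted p = 0.0629), but its difference from the move to 27 °C did (1.70 ± 0.31, adjusted p = 0.00362). At 27 °C SIG5 was lower (-0.52 ± 0.11, adjusted p = 0.0471), and in unshifted seedlings it was lower at 4 h than at 15 min (-1.68 ± 0.18, adjusted p = 0.000115). Of the 12 polymerase and nucleoid proteins PTAC12 was lower at 37 °C (-0.47 ± 0.11, adjusted p = 0.0407) and PTAC2 at 27 °C (-0.52 ± 0.10, adjusted p = 0.033). Of the 9 RNA-binding and turnover proteins CSP41B (0.42 ± 0.10) and CP31A (0.38 ± 0.09) were higher at 37 °C (adjusted p = 0.0451 and 0.0417). The nuclear-encoded plastid polymerase RPOTP did not pass at 37 °C (0.31 ± 0.29, adjusted p = 0.451). In the difference between the moves SIG3 was also higher (0.58 ± 0.16), and PTAC12 (-0.64 ± 0.19) and FLN1 (-0.70 ± 0.20) lower. Over unshifted time SIG3 (-0.43 ± 0.11), SIG4 (-0.87 ± 0.20) and the RNA-processing enzymes RNJ (-1.17 ± 0.20) and PNPase (-0.34 ± 0.11) were lower at 4 h as well. In the move from 22 to 27 °C 0 of the 27 passed (0.31% of all genes).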

How the data were processed

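RNA was sequenced from whole seedlings in 27 libraries of 21 groups. Per the labels' protocols, libraries were made with a stranded or an unstranded mRNA kit and read at 2 centres, and no label assigns a kit or centre to a library. The submitters' processing notes name FastQC, Trimmomatic, TopHat, Picard and TAIR10. Which program counted reads, and whether by strand, is not given in the sources used here. The authors deposited whole-number counts per gene, FPKM and TPM for each library. TPM as deposited is a rescaling of FPKM (largest difference 5.1e-11), and only TPM was used for levels between genes. Counts were used for all tests.

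Genes were named by position from RefSeq's TAIR10.1 annotation: 125 of 133 rows matched at both ends and 5 at 1 end, and 3 had no entry, of which 1 is the exact copy of a 5S rRNA row.

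Tests used edgeR 4.0.16 in R 4.3.3 (filterByExpr, TMM, robust quasi-likelihood F test, two-sided, Benjamini-Hochberg over all genes). On the chloroplast scale, the offset of chloroplast genes was the summed count of 86 chloroplast protein-coding rows times a TMM factor over them. The plain sum in place of that factor shifts the median at 37 °C from 0.12 to -0.27. The 17-to-27 fits held a block for each number within a time. Deviations from group means of same-numbered libraries correlated at 0.48, 0.59 and 0.54 (15 min, 1 h and 4 h, 19478 genes), so the numbers pair the libraries. Duplicates differed by 17.9 to 72.9 times the variance that counting error gives. Alternatives were DESeq2 1.42.0, other scalings, no filter, no pairing and leaving out libraries. The 0 min libraries entered no test. Code was checked on simulated counts.

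Members and lists were chosen with earlier results of these data known. Genes named in every case were psbA, psbD, psbB, psaA, psaB, rbcL, atpB, petB, ndhB, rpoB, rps7, rpl2, clpP, accD, ycf1, ycf2 and the 16S and 23S rRNA, with the 4 highest and 4 lowest called genes of each comparison; the genes given at single times of the 37 °C move were named after their values were seen. Intervals cover counting error only. Some genes are not reported here.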

Additional observations from a re-analysis of the deposited data

Results flagged for a closer look

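The effect of moving to 37 °C was set against that of moving to 27 °C by a test of the difference itself. It differed in 26 of 122 chloroplast genes on the library scale, where 19.1% of all genes were called. On the chloroplast scale it differed in 10 of 122, where 19% of all genes were called. Those 10, with their log2 differences (37 minus 27 °C), were trnA (ATCG01190) at -2.29, trnI (ATCG00930) at -1.78, trnL (ATCG00400) at -1.60, rps2 at -1.48, matK at -1.28, rpl14 at -1.12, trnS (ATCG00090) at 1.31, rpl23 (ATCG01300) at 1.80, the truncated ycf1 (ATCG01000) at 1.94 and psbK at 2.04. The 2 moves came from separate experiments, so temperature and experiment cannot be told apart beyond each experiment's own controls. No group had the 4 libraries that a check for a library standing apart would need.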

How the results depend on the processing

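Of the values of single genes under alternatives, 1149 stayed on their side of the threshold, 106 lost their call, 25 gained one and 0 reversed. Counts of called chloroplast genes depended on the setting as follows. Without the replicate block, the 1 h and 4 h counts at 27 °C went to 0 on both scales, the difference between moves from 26 to 0 on the library scale and from 10 to 6 on the chloroplast scale; it changed no other call count. DESeq2 gave 3 at 4 h of 27 °C (library scale), 0 at 1 h (chloroplast scale), 14 at 37 °C, 16 for the difference between moves and 4 for unshifted time (all chloroplast scale). Without a filter the 4 h count at 27 °C was 2 (library scale). With RLE scaling of the coding genes it was 0 and the unshifted count 4, and with their plain sum the 1 h count was 1 and the unshifted count 6 (chloroplast scale). Leaving out 1 replicate of 1 time gave 0 to 11 (library scale) and 0 to 8 (chloroplast scale) at 1 h of 27 °C, and 0 to 4 and 0 to 3 at 4 h; the highest at 1 h came without number 2 of 1 h. For unshifted time, leaving out a number of the 17-to-27 experiment gave 1 and 1 on the library scale and 0 to 5 on the chloroplast scale, and leaving out the 17-to-37 or 22-to-27 experiment 0 on the chloroplast scale. At 37 °C the count was 15 without 15 min and 0 without 1 h (library scale), and 0 without 1 h and 5 without 4 h (chloroplast scale). With the spread estimated jointly with the 17-to-27 pairs it was 11 at 15 min (library scale), and 2, 13 and 30 at 15 min, 1 h and 4 h (chloroplast scale). The cause of these shifts was not tested, apart from the fewer libraries of the reduced fits. Depth limits the short and rare genes, since a 22-to-27 library held as few as 2483 chloroplast coding counts and 104 to 132 of the 133 genes had a count in a library.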

Other observations

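The gene psbT, a small photosystem II subunit of the psbB operon, had fewer counts relative to its neighbour psbH in the 17-to-37 libraries (ratio 0.0213 to 0.235, median 0.118) than in the 17-to-27 libraries (0.354 to 1.11, median 0.647), without overlap, and 0.143 to 0.750 in the 22-to-27 libraries. These rest on 35, 1390 and 43 psbT counts in all, and temperature does not separate them. The gene psbN lies between them on the opposite strand.

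The 0 min library of the 17-to-27 experiment, which its labels number in conflicting ways, had the lowest chloroplast share of all libraries (0.202%) and the highest share of polymerase rows among coding counts (15.4%, against 0.372% to 10.9% in the other libraries).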
